A study of Mus musculus with 6 samples.

Results

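The genes described here set whether a cell divides or leaves the cell cycle. They were taken as a list of 10 mouse symbols and matched to the Ensembl identifiers of the count files, where all 10 of the 39179 listed genes were found. They are the Cip/Kip inhibitors Cdkn1a and Cdkn1b, the INK4 inhibitors Cdkn2c and Cdkn2d, the D-type cyclins Ccnd1, Ccnd2 and Ccnd3, and the pocket proteins Rb1, Rbl1 and Rbl2. Their mRNA was compared between the cochlea, the organ of hearing, and the vestibule, the organ of balance.

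D-type cyclins bind and activate the kinases Cdk4 and Cdk6, which phosphorylate the pocket proteins and so release the E2F transcription factors that drive entry into S phase. INK4 proteins block Cdk4 and Cdk6, while Cip/Kip proteins bind cyclin-Cdk complexes more broadly. In the developing mouse cochlea the product of Cdkn1b, p27Kip1, marks the sensory precursors as they stop dividing and stays on in supporting cells, whereas the products of Cdkn1a, Cdkn2d and Rb1 are known for keeping hair cells out of the cycle.

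Sensory epithelium, in which hair cells sit among supporting cells, was dissected from wild-type C57Bl/6J mice on postnatal day 0, the day of birth. Males and females were pooled, with at least 20 cochleae or 20 vestibules in a pool, and the design describes 20 inner ears of 10 mice that gave 2.4 µg of cochlear and 1.5 µg of vestibular total RNA. For both tissues 3 libraries were made, each from 450 ng of RNA with a stranded mRNA kit, and sequenced as paired 100-base reads. There was no treatment, and no altered allele in either group. Nothing in the labels shows that the 3 libraries of a tissue came from separate pools, so p-values measure the spread between these libraries. Between libraries of the same tissue the chi-square of the counts per degree of freedom was 26.6 to 92.7, more than counting alone gives. Whether the rest of that spread was technical or came from separate pools was not tested.

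A library held 24464483 to 33664793 counts on genes, and 1 CPM, which is 1 of every 1000000 such counts, stood for 24.5 to 33.7 counts. Of the marker lists, 5 of 8 hair cell genes and 1 of 8 supporting cell genes were called higher in the vestibule, and 6 of 8 supporting cell genes were called higher in the cochlea. No defining marker of either cell type was at 0. Endothelial genes (4 of 5), macrophage genes (5 of 5), melanocyte genes (4 of 4), Schwann cell genes (2 of 5), mesenchymal genes (3 of 6) and genes of dark cells and stria (2 of 3) were called higher in the vestibule, 2 of 5 neuronal and 1 of 6 mesenchymal genes were called higher in the cochlea, cartilage genes split into 1 of 4 each way, and no red blood cell gene of 3 was called by edgeR, with 0 at an unadjusted p under 0.05 and 0 by DESeq2. Beside these counts, 15.8% of all genes tested were called higher in the vestibule and 11.6% higher in the cochlea. Several of the marker counts depended on single libraries. The hair cell count of 5 was 3 without cochlea replicate 1 and 3 without vestibule replicate 2. The neuronal count of 2 was 0 without cochlea replicate 1 or 2, 4 without cochlea replicate 3 and 1 without vestibule replicate 3. The mesenchymal gene called higher in the cochlea was called in 1 of the 6 fits that left out a library, that without vestibule replicate 1, the count of 3 called higher in the vestibule was 2 in each of these fits but that without cochlea replicate 3, and 2 red blood cell genes were called higher in the vestibule without cochlea replicate 1. Of the skeletal muscle genes 2 were tested and 0 called by edgeR, with 1 at an unadjusted p under 0.05 and 1 by the likelihood ratio test. Cochlea replicate 3 stood apart in the 5 skeletal muscle genes listed, with a summed level of 192 CPM against 2.94 to 16.4 CPM in the other libraries, and held the lowest neuronal sum of the cochlear libraries at 128 CPM. Each log2 fold change of the 10 genes was therefore also computed without that library.

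The counts were scaled by TMM (trimmed mean of M-values) and the tissues compared by the quasi-likelihood test of edgeR. P-values were adjusted by Benjamini-Hochberg over all 14723 genes that had at least 1 CPM in 3 or more libraries, and a gene is said to be called where its adjusted p was under 0.05. Log2 fold changes subtract the cochlea from the vestibule (negative where the cochlea was higher) and are given with their standard error (SE). All 10 genes passed the filter, with 146 to 7114 counts in a library. Of them 3 were called, beside 27.4% of all genes tested: Cdkn1b and Rbl1 were higher in the cochlea, where 11.6% of all genes were called, and Rbl2 was higher in the vestibule, where 15.8% were. A share of 3 in 10 is near that background and is no result about the list. The median log2 fold change of the 10 genes was 0.14, beside 0.0048 over all genes tested, and their median absolute log2 fold change was 0.19, beside 0.32. In bulk tissue a smaller number of expressing cells and less RNA per cell cannot be told apart, and this holds for every difference below.

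**Figure D1:**
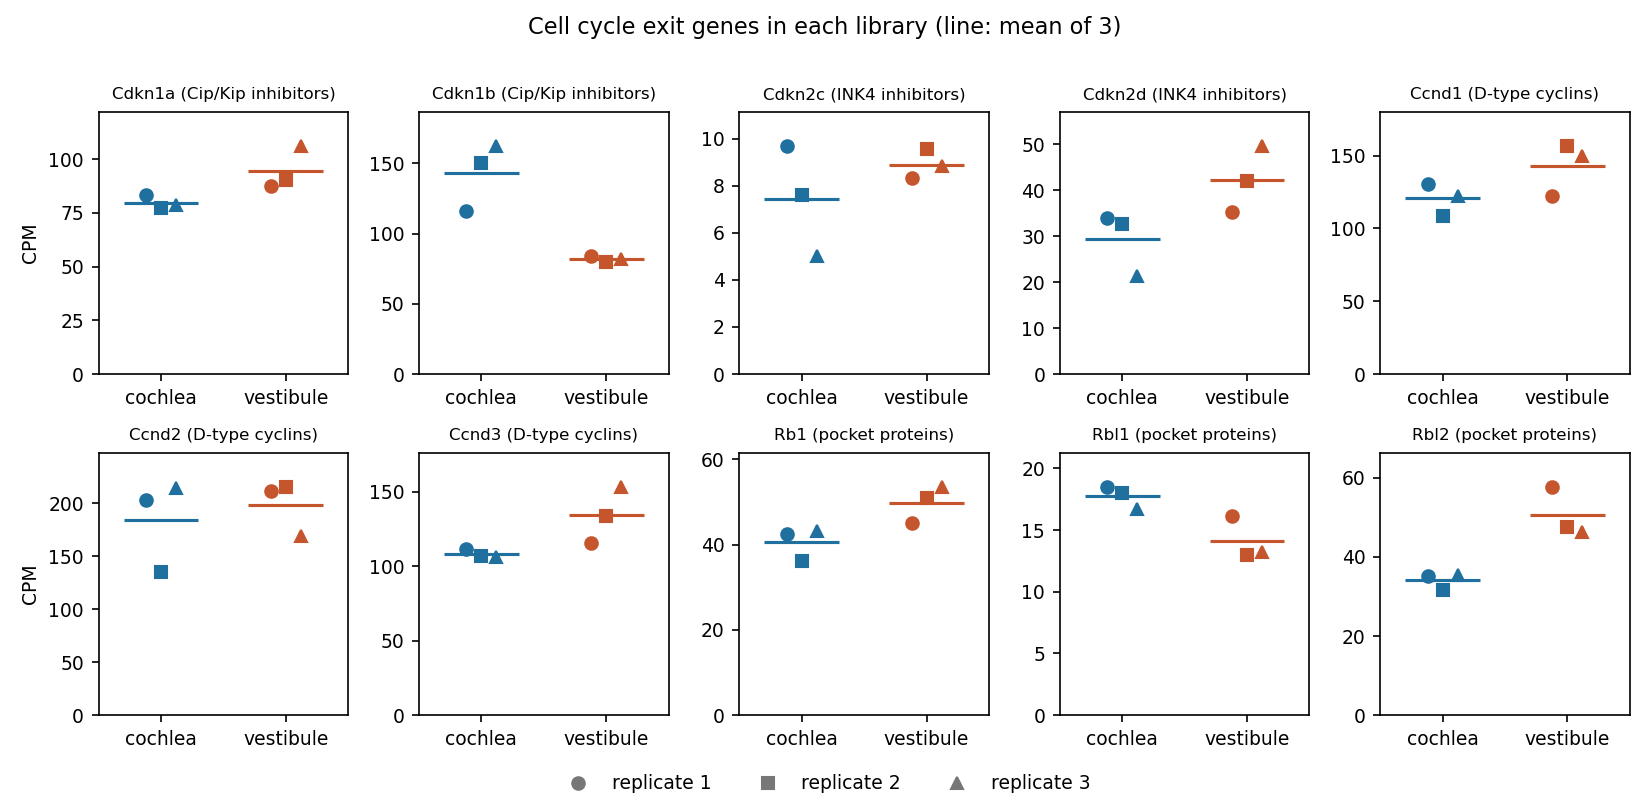
CPM (linear axes from 0) of the 10 genes in each of the 3 cochlear (blue) and 3 vestibular (orange) libraries, where the marker shape gives the replicate and the line the mean. Cdkn1b is the gene whose tissues lie farthest apart, with cochlear libraries from 116 to 162 CPM and vestibular libraries from 79.7 to 83.9 CPM.

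With 1 library left out, the Cdkn1b call held in 6 of 6 fits, the Rbl2 call in 2 and the Rbl1 call in 1. The promoters of these 3 genes, called in the fit of all 6 libraries, are shown. Each is the run of 250 bases before the transcription start in the direction of the gene, from the RefSeq table for build GRCm38.p6, which held promoters of 7 of the 10 genes. Capitals mark matches to 6 motifs searched on both strands: the E2F words TTTCCCGC, TTTCGCGC, TTTGCCGC and TTTGGCGC, the cell cycle homology region TTTGAA, the GC box GGGCGG, the CCAAT box CCAAT, the E-box CACGTG and the forkhead word TGTTTAC. No match printed here overlapped another.
Cdkn1b, chr6:134920151-134920400, plus strand: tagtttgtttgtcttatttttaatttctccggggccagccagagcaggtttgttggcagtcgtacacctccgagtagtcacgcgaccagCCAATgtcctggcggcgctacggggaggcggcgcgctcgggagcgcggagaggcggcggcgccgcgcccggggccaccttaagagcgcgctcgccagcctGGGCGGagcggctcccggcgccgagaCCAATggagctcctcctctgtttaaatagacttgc
Rbl1, chr2:157204535-157204784, minus strand: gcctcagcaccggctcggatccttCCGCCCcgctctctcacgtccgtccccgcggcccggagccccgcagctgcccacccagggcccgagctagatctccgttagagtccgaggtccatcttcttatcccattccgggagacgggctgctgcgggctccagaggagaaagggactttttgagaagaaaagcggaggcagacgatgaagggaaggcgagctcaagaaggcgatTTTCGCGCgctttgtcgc
Rbl2, chr8:91069807-91070056, plus strand: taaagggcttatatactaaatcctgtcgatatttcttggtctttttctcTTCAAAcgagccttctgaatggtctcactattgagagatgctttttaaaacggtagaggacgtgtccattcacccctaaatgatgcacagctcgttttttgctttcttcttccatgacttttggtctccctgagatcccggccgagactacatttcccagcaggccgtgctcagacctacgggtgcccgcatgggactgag

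The Cdkn1b promoter held CCAAT boxes from 161 and from 35 bases before the start and a GC box from 61 bases before it. The Rbl1 promoter held the E2F word TTTCGCGC from 18 bases before the start, and a GC box farther out. The Rbl2 promoter held only the cell cycle homology region, on the opposite strand, from 201 bases before the start. Over all 32851 promoters in the table, 1.86% held an E2F word in this window, 16.0% the cell cycle homology region, 32.7% a GC box, 33.8% a CCAAT box, 6.02% the E-box and 3.17% the forkhead word. These matches describe the letters of the window and were not tested as binding sites. Among the 10 promoter windows of the 7 genes, that of Rbl1 was the one with an E2F word.

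Cdkn1b encodes p27Kip1, the Cip/Kip inhibitor of the sensory precursors (ENSMUSG00000003031, chromosome 6 from 134920401 to 134925513, plus strand, GRCm38). Its level was 116, 150 and 162 CPM in cochlea replicates 1, 2 and 3, and 83.9, 79.7 and 81.6 CPM in vestibule replicates 1, 2 and 3. Every cochlear library lay above every vestibular one, and the cochlear libraries spread more widely, with an SD of 23.9 CPM against 2.1 CPM (n = 3 each). The log2 fold change was -0.93 (SE 0.15), a level 1.90-fold higher in the cochlea, with an edgeR adjusted p of 0.00221. Cdkn1b was called in each of the 6 fits that left out 1 library, where the log2 fold change lay between -1.07 and -0.85, and it was -0.85 without cochlea replicate 3. Of all genes tested, 18.1% had a larger absolute log2 fold change.

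Of the 8 supporting cell markers listed, 6 were called higher in the cochlea as Cdkn1b was, with log2 fold changes from -4.29 (Fgfr3) to -0.60 (Sox2). S100a1 was called higher in the vestibule, at 1.35, and Lfng, at -0.024, was not called. The 8 genes summed to between 678 and 781 CPM in the cochlear libraries and between 574 and 679 CPM in the vestibular ones, so that the sums overlapped at their ends. The Sox2 call held in 2 of the 6 fits that left out a library, those without the third replicate of either tissue. Hey2 lost its call without cochlea replicate 2 (edgeR adjusted p = 0.0563) and without vestibule replicate 2 (0.0602), so that 4 of the 8 genes were called higher in the cochlea in those fits. The part of these cells in the Cdkn1b difference was not tested.

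Cdkn1a encodes p21Cip1, which p53 induces (ENSMUSG00000023067, chromosome 17 from 29090976 to 29100727, plus strand). It stood at 83.1, 77.0 and 78.8 CPM in cochlea replicates 1, 2 and 3 and at 87.4, 90.5 and 106 CPM in vestibule replicates 1, 2 and 3. These values do not overlap, but after TMM scaling they did, and the log2 fold change of 0.14 (SE 0.14) was not called, with an edgeR adjusted p of 0.511. The 95% interval of that fold change ran from -0.18 to 0.45 on the log2 scale. The value was 0.0029 without vestibule replicate 3 and 0.22 without vestibule replicate 1, the ends of the 6 fits that left out a library.

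The make-up of the pair of Cdkn1a and Cdkn1b was compared per length, from the deposited RPKM (reads scaled to the length of the gene and the size of the library), as a share that does not depend on how libraries are scaled. Cdkn1b made up 40.6%, 48.8% and 50.1% of the summed RPKM of both genes in cochlea replicates 1, 2 and 3, and 31.9%, 30.1% and 27.3% in vestibule replicates 1, 2 and 3. The mean share of cochlear libraries was 46.5% ± 5.18 and that of vestibular libraries 29.8% ± 2.33 (SD, n = 3 each), with no overlap. The two-sided exact permutation test gave p = 0.1, the smallest that 3 libraries against 3 allow, and 0.267 after Benjamini-Hochberg adjustment over the 8 shares tested. With exon lengths of GENCODE vM21 (chosen after the data were seen), by which Cdkn1a is longer, the Cdkn1b share was 58.1% ± 5.14 over cochlear and 40.4% ± 2.69 over vestibular libraries (SD, n = 3 each), also without overlap, so that in the cochlea the more abundant gene of the pair depends on the lengths, while in the vestibule Cdkn1a was the more abundant one on both. The 2 genes together summed to 63.0, 67.7 and 71.2 RPKM in the cochlea and to 57.9, 58.3 and 65.8 RPKM in the vestibule, which overlapped.

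These shares leave out Cdkn1c, the other Cip/Kip gene, which was more abundant, with 269 to 281 RPKM in the cochlear and 137 to 206 RPKM in the vestibular libraries. With Cdkn1c added to the sum, an alternative chosen after the data were seen, the Cdkn1b share was 9.16% ± 1.41 over cochlear and 7.86% ± 1.47 over vestibular libraries (SD, n = 3 each), which overlapped. Cdkn1a then made up 10.5% ± 0.515 and 18.4% ± 1.57, and Cdkn1c 80.4% ± 0.894 and 73.7% ± 3.00, both without overlap.

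**Figure D2:**
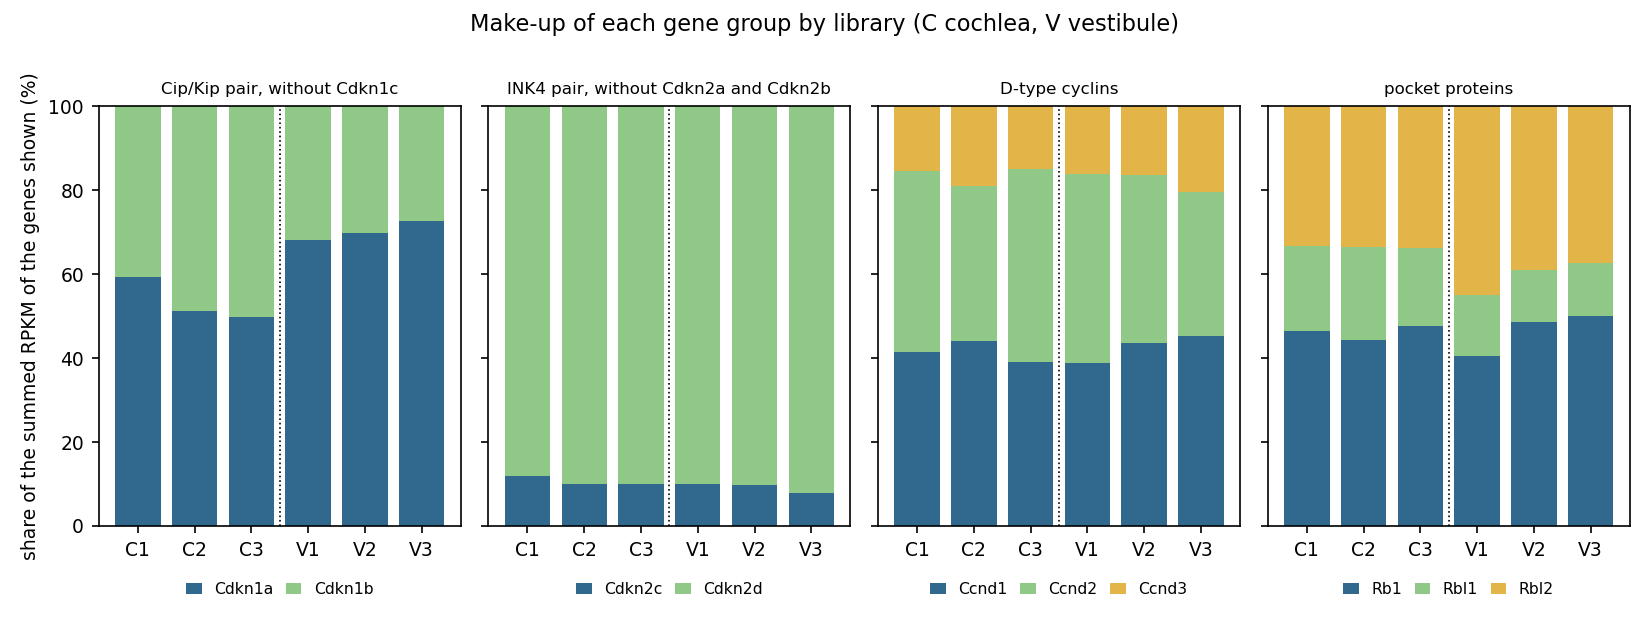
Share of each gene in the summed RPKM of the genes shown in its panel, in percent, as stacked bars for cochlea libraries C1 to C3 and vestibule libraries V1 to V3 (n = 3 per tissue, no error bars as each bar is 1 library). Cdkn1b takes 40.6% to 50.1% of the sum with Cdkn1a in the cochlea and 27.3% to 31.9% in the vestibule, a sum that leaves out Cdkn1c, and Rbl1 and Rbl2 also separate by tissue, whereas the INK4 genes, the D-type cyclins and Rb1 overlap.

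Neither INK4 inhibitor was called by edgeR, with 0 at an unadjusted p under 0.05 and 0 called by DESeq2, limma or the likelihood ratio test. Cdkn2d encodes p19Ink4d (ENSMUSG00000096472, chromosome 9 from 21288410 to 21291407, minus strand) and stood at 33.8, 32.7 and 21.4 CPM in the cochlear replicates in order and at 35.3, 41.9 and 49.6 CPM in the vestibular ones. The vestibular values were all above the cochlear ones on this scale, but overlapped them after TMM scaling. The log2 fold change was 0.41 (SE 0.22), with a 95% interval from -0.10 to 0.92 and an edgeR adjusted p of 0.213, so that a 1.33-fold difference was not separable from the spread at this number of libraries. Cochlea replicate 3, the library with the muscle genes, held the lowest value, and the log2 fold change without it was 0.21, the smallest of the 6 fits that left out a library, with 0.24 without vestibule replicate 3. Of the 8 hair cell markers, 5 were called higher in the vestibule and 3 were not called, Myo7a at 0.57, Atoh1 at -0.07 and Myo6 at -0.35, the last with every cochlear library above every vestibular one. The count of 5 was 3 without cochlea replicate 1 or without vestibule replicate 2, where Pou4f3 (edgeR adjusted p of 0.0559 and 0.0525) and Tmc1 (0.0588 and 0.0583) were not called. The 8 genes summed to 548 to 756 CPM in the cochlea and 997 to 1274 CPM in the vestibule, sums in which Otof alone stood at a mean of 83.6 CPM and 389.7 CPM. The part of hair cells in the Cdkn2d values was not tested.

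Cdkn2c encodes p18Ink4c (ENSMUSG00000028551, chromosome 4 from 109660876 to 109667189, minus strand) and had few counts, 146 to 280 in a library. Its level was 9.69, 7.60 and 4.996 CPM in the cochlear replicates and 8.32, 9.54 and 8.83 CPM in the vestibular ones. The tissues overlapped, cochlea replicate 3 was again the lowest, and the log2 fold change of 0.14 (SE 0.25, edgeR adjusted p = 0.716) turned to -0.091 without that library and was 0.36 without cochlea replicate 1. Within the pair, Cdkn2d made up 89.4% ± 1.16 of the summed RPKM in the cochlea and 90.8% ± 1.23 in the vestibule (SD, n = 3 each), which overlapped (exact permutation p = 0.3).

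No D-type cyclin was called by edgeR, with 0 at an unadjusted p under 0.05 and 0 called by DESeq2, limma or the likelihood ratio test. Ccnd1, the cyclin that mitogen signals induce (ENSMUSG00000070348, chromosome 7 from 144929931 to 144939925, minus strand), stood at 131, 109 and 122 CPM in the cochlear replicates and at 123, 157 and 149 CPM in the vestibular ones. Ccnd2 (ENSMUSG00000000184, chromosome 6 from 127125162 to 127152193, minus strand) stood at 203, 135 and 214 CPM in the cochlea and at 211, 215 and 169 CPM in the vestibule. Ccnd3 (ENSMUSG00000034165, chromosome 17 from 47505051 to 47599691, plus strand) stood at 112, 107 and 106 CPM in the cochlea and at 116, 134 and 153 CPM in the vestibule. Ccnd1 and Ccnd2 overlapped between the tissues, with cochlea replicate 2 the lowest library for both, and Ccnd3 overlapped only after TMM scaling. The log2 fold changes were 0.13 (SE 0.15), -0.0085 (SE 0.17) and 0.20 (SE 0.15) for Ccnd1, Ccnd2 and Ccnd3, with edgeR adjusted p-values of 0.542, 0.977 and 0.379.

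The 95% intervals bound the D-type cyclin differences to between -0.20 and 0.46 for Ccnd1, between -0.39 and 0.38 for Ccnd2 and between -0.15 and 0.54 for Ccnd3, on the log2 scale. With 1 library left out, the Ccnd1 value was 0.060 without vestibule replicate 3, 0.072 without vestibule replicate 2 and 0.26 without vestibule replicate 1, and the Ccnd3 value 0.049 without vestibule replicate 3 and 0.32 without vestibule replicate 1. The sign of the Ccnd2 value changed with the scaling and with which library was left out, and no direction is given for it. As shares of the summed RPKM of the 3 cyclins, Ccnd1 and Ccnd2 were close to each other on the lengths of the deposited RPKM, with Ccnd1 at 41.5% ± 2.53 in the cochlea and 42.6% ± 3.32 in the vestibule and Ccnd2 at 42.1% ± 4.69 and 39.9% ± 5.34 (SD, n = 3 each). Ccnd3 took 16.4% ± 2.22 and 17.5% ± 2.39. All 3 shares overlapped between the tissues, with exact permutation p-values of 0.5 to 0.8.

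Exons of Ccnd1 share 1100 bases (23.4% of its exons) with LTO1 on the opposite strand in the GENCODE vM21 annotation. The files do not state whether counting used the strand, and reads of overlapping genes on opposite strands cannot then be told apart. A summary line for ambiguous reads, left out here, held 3.22% to 3.63% of the listed counts. Reads of shared bases may therefore be missing from both genes rather than added to 1 of them. LTO1 had 291 to 530 counts in a library, against 3132 to 4125 for Ccnd1. Ccnd3 shares 361 exon bases (4.11%) with Bysl on the opposite strand, which had 843 to 936 counts in the cochlear and 641 to 889 in the vestibular libraries. Ccnd2 shares 368 bases with 9330179D12Rik, which had 12 to 21 counts in a library, and 372 bases with Gm43126, and Cdkn1a shares 273 bases with AC167363.2, all on the opposite strand. The part of the reads of these genes in the counts of the cyclins and of Cdkn1a was not tested.

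Of the pocket proteins, Rbl2 was called higher in the vestibule, Rbl1 higher in the cochlea, and Rb1 in neither. Rbl2 encodes p130, the pocket protein that prevails in resting cells (ENSMUSG00000031666, chromosome 8 from 91070057 to 91123844, plus strand), and its level was 35.2, 31.8 and 35.4 CPM in cochlea replicates 1, 2 and 3 and 57.7, 47.6 and 46.2 CPM in vestibule replicates 1, 2 and 3. All vestibular values were above all cochlear ones, also after TMM scaling. The log2 fold change was 0.44 (SE 0.12), a level 1.36-fold higher in the vestibule, with an edgeR adjusted p of 0.0259. The call depended on single libraries: the adjusted p was 0.0661 without cochlea replicate 1, 0.0780 without cochlea replicate 2, 0.0872 without vestibule replicate 1 and 0.0717 without vestibule replicate 2, and it stayed under the threshold at 0.0396 without cochlea replicate 3 and at 0.0447 without vestibule replicate 3. Rbl2 shares 693 exon bases (9.17%) with Aktip on the opposite strand, which had 961 to 1057 counts in the cochlear and 1107 to 1522 in the vestibular libraries. It also shares 892 exon bases (11.8%) with Gm45464 on the opposite strand, for which no counts were used here. The part of the reads of either gene in the Rbl2 counts was not tested.

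Rbl1 encodes p107, the pocket protein of cycling cells (ENSMUSG00000027641, chromosome 2 from 157145893 to 157204534, minus strand), and stood at 18.5, 18.02 and 16.7 CPM in the cochlear replicates and at 16.1, 13.0 and 13.2 CPM in the vestibular ones. The cochlear values were all above the vestibular ones. The log2 fold change was -0.45 (SE 0.15), 1.37-fold higher in the cochlea, with an edgeR adjusted p of 0.0489, just under the threshold. It was under the threshold without cochlea replicate 3 (0.0425) and above it without each of the others, at 0.127 without cochlea replicate 1, 0.133 without cochlea replicate 2, 0.0641 without vestibule replicate 1, 0.216 without vestibule replicate 2 and 0.0975 without vestibule replicate 3. Library sizes without TMM gave 0.145.

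Rb1, the retinoblastoma gene (ENSMUSG00000022105, chromosome 14 from 73183673 to 73325822, minus strand), stood at 42.5, 36.1 and 43.3 CPM in the cochlear replicates and at 45.0, 51.0 and 53.5 CPM in the vestibular ones. The tissues did not overlap before TMM scaling and did after it, and the log2 fold change of 0.18 (SE 0.14, 95% interval from -0.13 to 0.50) was not called, with an edgeR adjusted p of 0.364. It was 0.089 without vestibule replicate 3 and 0.28 without vestibule replicate 1. Rb1, with 1039 to 1515 counts in a library, shares exon bases with 2 genes on the opposite strand. Rcbtb2 shares 488 bases (8.11% of the Rb1 exons) and had 1618 to 2225 counts in the cochlear and 1651 to 2290 in the vestibular libraries. Lpar6, a gene within the span of Rb1, shares 408 bases and had 165 to 192 counts in the cochlea and 309 to 469 in the vestibule. The part of those reads in the Rb1 counts was not tested.

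As shares of the summed RPKM of the 3 pocket proteins, Rbl1 stood at 20.3% ± 1.84 in the cochlea and 13.1% ± 1.24 in the vestibule, and Rbl2 at 33.6% ± 0.253 and 40.5% ± 3.91 (SD, n = 3 each). Neither pair of tissues overlapped, in opposite directions, with an exact permutation p of 0.1 each, 0.267 after adjustment over the 8 shares. The Rb1 share of 46.1% ± 1.79 and 46.4% ± 5.13 overlapped (exact permutation p = 0.9). The 3 genes summed to 13.6 to 15.2 RPKM in cochlear and 17.5 to 18.5 RPKM in vestibular libraries, with no overlap, on a scale without TMM.

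**Figure D3:**
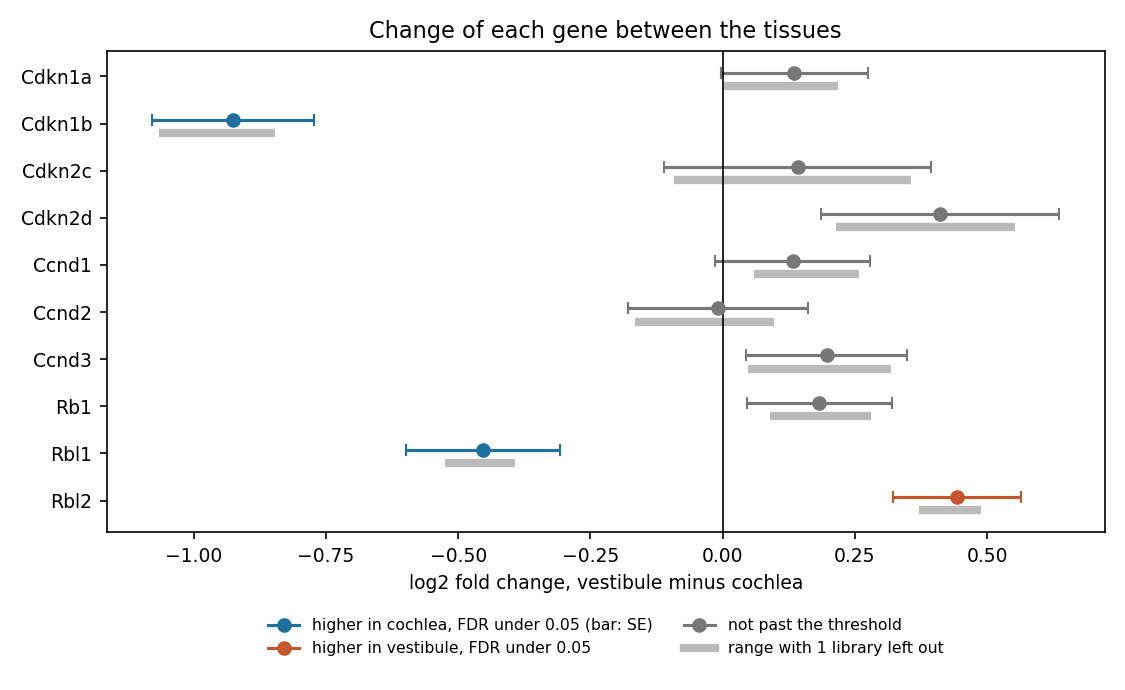
Log2 fold change (vestibule minus cochlea) of the 10 genes as points with the SE as bars, coloured where called at an adjusted p under 0.05, with the range over the 6 fits that each left out 1 library as a grey band. Cdkn1b stands at -0.93 with a band from -1.07 to -0.85, the 2 other called genes stand at -0.45 and 0.44, and the other 7 lie between -0.0085 and 0.41.

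How many of these genes separated by tissue depended on the scale. On CPM, 7 of the 10 genes had libraries that did not overlap between the tissues, 5 of them higher in the vestibule and 2 higher in the cochlea, beside 41.8% of all genes tested. After TMM scaling the number was 3 of 10, beside the same 41.8% of all genes. The TMM factors were 0.921 to 0.981 in the cochlea and 0.990 to 1.09 in the vestibule, and the median log2 fold change over all genes tested moved to 0.13 when TMM was left out. The genes that separated on CPM and no longer after TMM scaling were Cdkn1a, Cdkn2d, Ccnd3 and Rb1, and in all 4 the vestibular values were the higher ones.

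The level of the genes against each other was compared on the deposited log2 RPKM, and the order depends on the gene lengths behind it. On that scale Cdkn1a had the highest mean in both tissues, at 5.16 ± 0.06 in the cochlea and 5.41 ± 0.15 in the vestibule (SD, n = 3 each), which is 35.9 and 42.7 RPKM. In the cochlea the order went on with Ccnd2 (4.99), Ccnd1 (4.97), Cdkn1b (4.96), Cdkn2d (4.50), Ccnd3 (3.63), Rb1 (2.75), Rbl2 (2.29), Rbl1 (1.57) and Cdkn2c (1.42). Neighbours overlapped over the first 5 places and between Rbl1 and Cdkn2c, and did not overlap from Cdkn2d down to Rbl1.

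In the vestibule the order was Cdkn1a, Ccnd1 (5.21), Ccnd2 (5.12), Cdkn2d (5.04), Cdkn1b (4.17), Ccnd3 (3.93), Rb1 (3.05), Rbl2 (2.85), Cdkn2c (1.73) and Rbl1 (1.23). Neighbours overlapped over the first 4 places and between Rb1 and Rbl2. On these lengths Cdkn1b overlapped with neither neighbour there: it lay below the first 4 genes and above Ccnd3, with 17.6 to 18.5 RPKM. In the cochlea it had been within the range of the leading genes, with 25.6 to 35.7 RPKM. Among all genes of the deposited matrix Cdkn1b stood at percentile 88.2 in the cochlea and 76.8 in the vestibule, Cdkn1a at 90.04 and 91.5, and Rbl1 at 32.9 and 24.4.

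The lengths behind the deposited RPKM, recovered from the counts, were 2219 bases for Cdkn1a, 5691 for Ccnd2, 3828 for Ccnd1 and 1268 for Cdkn2d, against merged exons of 3553, 9409, 4709 and 1574 bases in GENCODE vM21. For Cdkn1b the length was 4544 bases, close to that of its vM21 exons. The levels were also computed as CPM per kilobase of the vM21 exons, an alternative chosen after the data were seen. Cdkn1b then had the highest mean in the cochlea, at 31.4, followed by Ccnd1 (25.6), Cdkn1a (22.4), Ccnd2 (19.6) and Cdkn2d (18.6). In the vestibule Ccnd1 came first, at 30.3, followed by Cdkn2d (26.8), Cdkn1a (26.6), Ccnd2 (21.1) and Cdkn1b (17.96). Cdkn1b, at 17.5 to 18.4 in the vestibular libraries, then overlapped with Ccnd2, at 17.9 to 22.9. In each tissue 6 of the 10 genes kept their place, and which of the leading genes was the most abundant is therefore not settled by these levels.

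**Figure D4:**
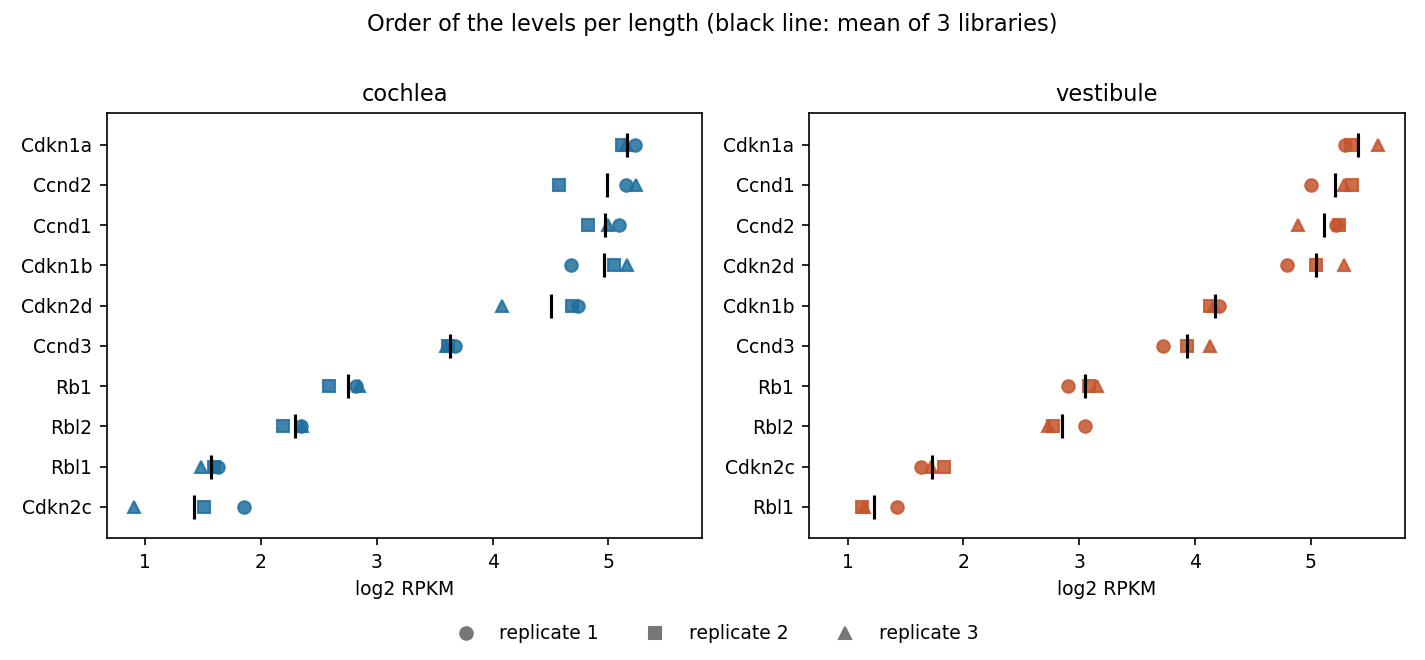
Log2 RPKM, as deposited, of the 10 genes in the cochlea (left) and the vestibule (right), sorted by the mean of 3 libraries (black line), with 1 marker per library and replicate. Cdkn1b lies within the leading group in the cochlea (mean 4.96) and apart from both neighbours in the vestibule (mean 4.17), on the lengths behind the deposited RPKM.

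The other genes of the pathway came from a list of 45, of which 44 were tested. Of these 5 were called higher in the cochlea and 1 higher in the vestibule, beside the 11.6% and 15.8% of all genes, and 38 were not called. Their median log2 fold change was -0.13. Cdkn2a, the INK4 gene known from senescent cells, was not tested, with 0.236 CPM or less in every library.

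Of the other Cdk inhibitors, Cdkn1c, which encodes p57Kip2, stood at 531, 520 and 542 CPM in the cochlear replicates and at 264, 340 and 397 CPM in the vestibular ones, with no overlap. Its log2 fold change was -0.78 (SE 0.19, edgeR adjusted p = 0.0139), and the adjusted p was 0.0513 without cochlea replicate 2 and 0.0573 without vestibule replicate 2. Cdkn2b was not called, at -0.42. Of the 7 kinases and cyclins of G1 and S phase, Cdk4, the partner of the D-type cyclins, was called, with 283 to 329 CPM in the cochlea and 211 to 246 CPM in the vestibule, a log2 fold change of -0.49 (SE 0.15) and an edgeR adjusted p of 0.0384. The adjusted p of Cdk4 was 0.0733 and 0.132 without cochlea replicates 1 and 2, 0.110 and 0.117 without vestibule replicates 1 and 2, and 0.0531 without TMM. Without cochlea replicate 3, 2 of these 7 genes were called, Cdk4 and Ccne1 (edgeR adjusted p = 0.0170).

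Of the 7 genes of p27Kip1 turnover, 2 were called, both higher in the cochlea, beside 11.6% of all genes in that direction, and 2 of 7 genes are too few to be a result about the list. Skp2, the F-box protein that recognizes p27Kip1 for degradation, stood at 15.1, 13.3 and 12.4 CPM in the cochlear replicates and at 9.77, 8.02 and 6.44 CPM in the vestibular ones, and its log2 fold change of -0.87 (SE 0.18, edgeR adjusted p = 0.00777) was called in all 6 fits that left out a library. Skp1a, a core subunit shared by many F-box ligases, stood at 773 to 927 CPM and at 416 to 648 CPM, with a log2 fold change of -0.79 (SE 0.21, edgeR adjusted p = 0.0233). The adjusted p of Skp1a was 0.0618 without cochlea replicate 1, 0.0903 without cochlea replicate 2 and 0.0804 without vestibule replicate 2.

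By edgeR 0 of the 10 E2F and DP factors were called, with 2 at an unadjusted p under 0.05, E2f2 and Tfdp1 (log2 fold changes of -0.55 and -0.35), and 0 called by DESeq2, limma or the likelihood ratio test. Of the 6 MuvB genes, whose products join Rbl1 and Rbl2 in repressor complexes or replace them there, edgeR called 0, with 3 at an unadjusted p under 0.05, and limma called 1, Lin37 (0.48 in the edgeR fit). In the fits that left out a library, 1 E2F or DP factor was called, Tfdp1 without cochlea replicate 2 (edgeR adjusted p = 0.0432), and 1 MuvB gene, Lin52 without cochlea replicate 3 (0.0185), both higher in the cochlea. Of the 4 genes of cyclin D turnover 0 were called by edgeR, DESeq2, limma or the likelihood ratio test, and 0 had an unadjusted p under 0.05. Of the 8 upstream transcription factors, Mycn was called higher in the cochlea, with 22.2, 31.1 and 27.8 CPM in the cochlear and 5.70, 5.33 and 4.004 CPM in the vestibular replicates. Its log2 fold change of -2.56 (SE 0.20, edgeR adjusted p = 3.96e-05) was the largest of the list. Foxo1, a factor that can activate Cdkn1b, was called higher in the vestibule, with 64.7 to 69.4 CPM in the cochlea and 112 to 117 CPM in the vestibule and a log2 fold change of 0.65 (SE 0.12, edgeR adjusted p = 0.00374). Both calls held in all 6 fits that left out a library.

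**Figure D5:**
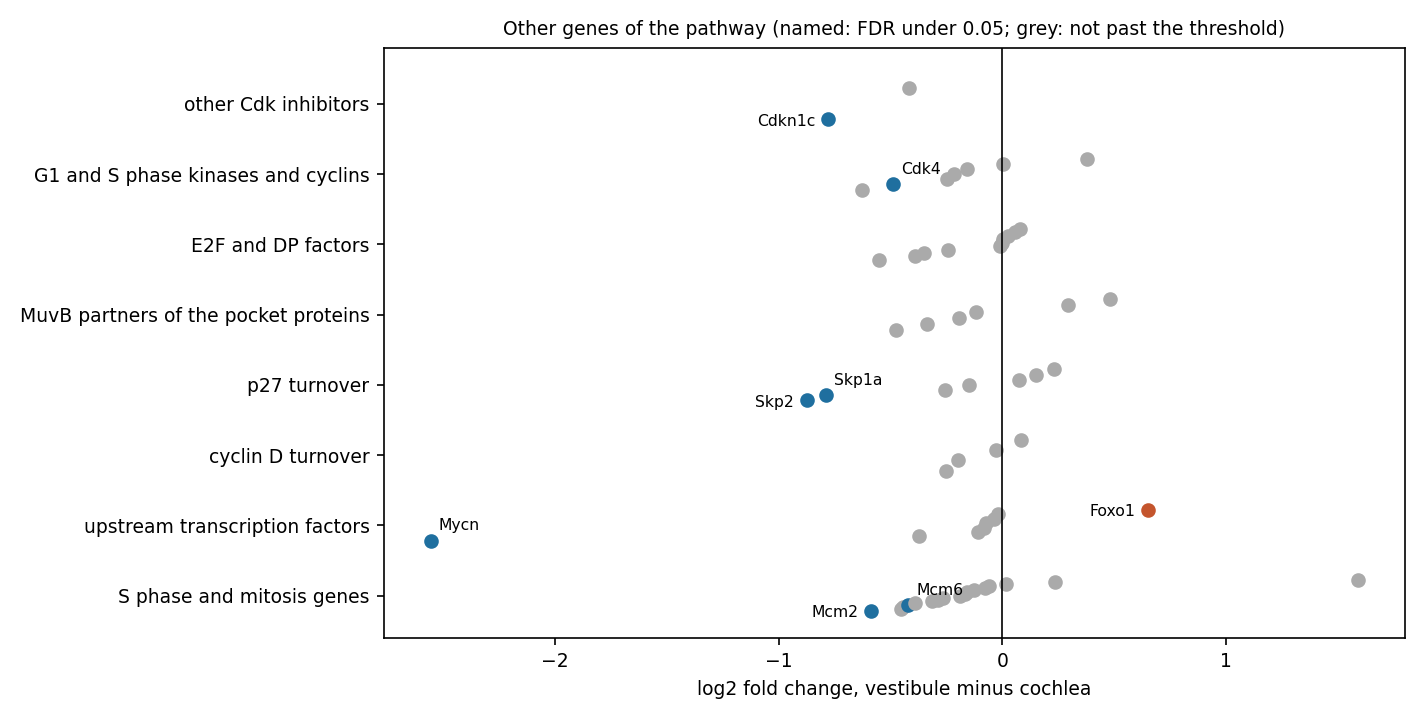
Log2 fold change (vestibule minus cochlea) of the other pathway genes and of the S phase and mitosis genes, 1 point per gene and 1 line per subgroup, coloured and named where called at an adjusted p under 0.05. Mycn at -2.56 and Foxo1 at 0.65 lie at the ends of the called genes, and the E2F and DP factors, the MuvB subunits and the cyclin D turnover genes hold no called gene.

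Of 17 S phase and mitosis genes, 2 were called, Mcm2 and Mcm6 of the replicative helicase, both higher in the cochlea. This share is near the 11.6% of all genes called in that direction and is no result about the list. The number called higher in the cochlea was 4 without cochlea replicate 3, with Mcm5 and Rrm2 added, and 1, Mcm2, in each of the other 5 fits that left out a library. Mcm2 stood at 41.9, 43.8 and 39.0 CPM in the cochlear and 32.3, 31.7 and 26.5 CPM in the vestibular replicates, with a log2 fold change of -0.59 (SE 0.13, edgeR adjusted p = 0.00957). Mcm6 had -0.42 (SE 0.13, edgeR adjusted p = 0.0439), and it was called in 1 of the 6 fits with a library left out, that without cochlea replicate 3 (0.0153), with adjusted p-values of 0.0805 to 0.131 in the others. The summed level of the 17 genes was 404 to 507 CPM in the cochlea and 400 to 500 CPM in the vestibule.

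Of the 53 other genes of both lists that were tested, the patterns most like that of Cdkn1b over the 6 libraries were those of Cdkn1c, Cdk4 and Skp2. Each gene was centred on its mean log2 CPM, and likeness was then the root mean square of the differences over libraries, which was 0.240 for Cdkn1c, 0.277 for Cdk4 and 0.282 for Skp2. The nearest of the 10 genes was Rbl1, at 0.303. These are descriptions over 6 libraries that share their tissue labels.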

How the data were processed

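RNA of 3 cochlear and 3 vestibular libraries was analysed. According to the submitters' processing notes, reads were handled with TopHat2 2.1.0, SAMtools 0.1.18, HTSeq 0.5.4p5 and edgeR 3.4.2 on GRCm38. The authors deposited unnormalized read counts per Ensembl gene, each file with 5 summary lines (18.5% to 20.6% of the listed counts), which were left out of library sizes and tests, and a deposited matrix of log2 RPKM values for genes past their filter, scaled by library size without TMM. Whether counting used the strand is not given in the sources used here.

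The test described above was run in edgeR 4.0.16 (R 4.3.3) and tested on simulated data first. Alternatives were DESeq2 1.42.0, limma 3.58.1 (voom, and on log2 RPKM), other scalings and filters, a replicate block and each library left out. Levels and shares were also computed with vM21 exon lengths. Shares were tested with scipy 1.17.1, and figures drawn with matplotlib 3.10.9. Coordinates are from GENCODE vM21, not the release the authors counted on. Named were all 10 genes, at most 2 called genes without overlap per pathway subgroup (3 for proliferation) with the largest change, and the 3 most like Cdkn1b. The marker genes printed, Cdkn2a, Cdkn2b, E2f2, Tfdp1, Lin37, Lin52, Ccne1, Mcm5, Rrm2, Mki67 and Top2a were named outside this rule after their values were seen, as were the genes that overlap a member. The genes and lists were chosen with earlier results of these data known. Groups of 3 were not tested for outlying libraries.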

Additional observations from a re-analysis of the deposited data

How the results depend on the processing

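The higher cochlear level of Cdkn1b kept its direction and its call in all 16 alternatives, with log2 fold changes from -1.07 to -0.79. The number of genes called higher in the cochlea among the 10 fell from 2 to 1 without TMM, with upper quartile scaling, without a filter, with limma-voom, with limma on log2 RPKM and with a replicate block, and ranged from 1 to 2 with 1 library left out; the gene lost was Rbl1. The number called higher in the vestibule fell from 1 to 0 without a filter and with the replicate block, and ranged from 0 to 1 with 1 library left out; the gene lost was Rbl2. The labels number the replicates without saying whether the numbers pair the libraries. Deviations of same-numbered libraries correlated at -0.18, -0.26 and -0.47, and no library correlated best with its own number. Differences within 1 tissue can outweigh a shared source in these deviations, so they cannot decide on a pairing. With the replicate block 1009 genes were called higher in the cochlea instead of 1711, 3 pathway genes instead of 5, and the edgeR adjusted p of Cdkn1b was 0.0163, of Rbl1 0.151 and of Rbl2 0.110. With 1 library left out, 995 to 1982 genes and 2 to 7 pathway genes were called higher in the cochlea, and 1 pathway gene higher in the vestibule. That last number was 2 without TMM, with limma-voom, with limma on log2 RPKM and at an FDR of 0.1 with a fold of 1.3. The share of calls that were higher in the vestibule was 57.6%, and 68.8% without TMM and with limma on log2 RPKM. The median log2 fold change of the 10 genes was 0.26 without TMM and 0.27 with limma on log2 RPKM, and 0.061 to 0.24 with 1 library left out. The Ccnd2 log2 fold change of -0.0085 became 0.11 without TMM, 0.0061 with upper quartile scaling, 0.0074 with limma-voom, 0.0078 with the replicate block and 0.13 with limma on log2 RPKM, and it ranged from -0.17 to 0.097 with 1 library left out. That of Cdkn2c ranged from -0.091 to 0.36 with 1 library left out, and was negative without cochlea replicate 3 alone. Shares of summed counts, which weigh long genes more by construction, were 36.1% and 53.6% for Cdkn1a in the cochlea and the vestibule, 63.9% and 46.4% for Cdkn1b, 20.0% and 17.6% for Cdkn2c, 80.0% and 82.4% for Cdkn2d, 29.3% and 29.97% for Ccnd1, 26.5% and 28.3% for Ccnd3, and in the cochlea 43.8% for Rb1 and 36.9% for Rbl2. The order of levels was the same on log2(RPKM + 1). With exon lengths of GENCODE vM21 (chosen after the data were seen) 6 of 10 genes kept their place in each tissue, and the shares in the cochlea and the vestibule were 41.9% and 59.6% for Cdkn1a, 58.1% and 40.4% for Cdkn1b, 12.8% and 11.1% for Cdkn2c, 87.2% and 88.9% for Cdkn2d, 33.7% and 31.7% for Ccnd2, 21.7% and 22.9% for Ccnd3, and in the cochlea 44.6% for Ccnd1 and 31.8% for Rbl2. With Cdkn1c added to the Cip/Kip sum (chosen after the data were seen) the shares were 10.5% and 18.4% for Cdkn1a and 9.16% and 7.86% for Cdkn1b. Every one of the 10 genes had 146 or more counts in each library. The cause of the other shifts was not tested.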

Other observations

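Mki67, a nuclear protein of cycling cells, varied between libraries of the same tissue more widely, relative to its mean CPM, than the other S phase and mitosis genes, and is named after its values were seen. It stood at 3.64, 14.5 and 14.2 CPM in cochlea replicates 1, 2 and 3 and at 71.6, 28.2 and 9.81 CPM in vestibule replicates 1, 2 and 3, so that the tissues overlapped. Its log2 fold change of 1.59 (SE 0.68) was not called, with an edgeR adjusted p of 0.12, and it was called without vestibule replicate 3 (0.0304). Top2a, another gene of dividing cells, ranged only from 35.8 to 53.0 CPM over the same 6 libraries.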
